A study of Mus musculus with 20 samples.

Results

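Spleen-only regions are the stretches of the mouse genome in which a peak of open chromatin was called in all 6 ATAC-seq libraries of spleen cells and in none of the 6 libraries of bone marrow (BM) cells. ATAC-seq cuts DNA with a transposase where chromatin is accessible, and a peak is a place where cuts pile up above the local background. Peaks of the 12 libraries that shared 1 base or more were joined into 101333 regions, of which 98807 lie on the autosomes, and 1967 of these autosomal regions (1.99%) met the rule. The members were thus chosen by the presence of peaks in spleen and their absence in BM, and that contrast is described here and not tested. For comparison, 11173 autosomal regions showed the opposite pattern, peaks in the 6 BM libraries alone (BM-only), and 29706 had a peak in all 12 (shared).

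The 12 libraries came from untreated mice, with 3 libraries for each tissue and CSF1R state. CSF1R is the receptor for M-CSF, and the study asked whether B-cell precursors that carry it differ in open chromatin from those that do not. The labels call all of these cells macrophages, whereas the study's text describes them as BMBP (B-cell precursors) and also calls those of spleen B cells. Neither source gives a strain for these samples. The study's methods describe its mice as young females throughout. The labels number 3 samples in each group without saying that they came from separate mice, so the p-values below measure only the spread between samples, which may be technical.

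Mature B cells in the spleen differ from precursors in the BM in which receptors they display and which transcription factors hold their enhancers open. Follicular B cells carry CD23 (encoded by Fcer2a), the chemokine receptor CXCR5 and the BAFF receptor, and their survival depends on NF-κB and on members of the BCL2 family. The POU factors OCT1 and OCT2 bind the octamer motif, PU.1 and other ETS factors bind a purine-rich motif, and E2A and EBF1, which drive the precursor stages, bind E-boxes and a palindrome, respectively.

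Sequences around the summits, the bases of highest pileup, show what these regions look like. They are 200 bases of the plus strand of GRCm38, centered on the median summit of the 6 spleen peaks, from members that rank among the strongest or lie at genes of the lists described below. Capitals mark every match to 1 of 5 motifs on either strand: the octamer ATTTGCAT, the NF-κB motif GGGANTTTC, the PU.1/ETS motif GAGGAAGT, the AP-1 motif TGANTCA and the IRF motif GAAANNGAA, where N is any base. A match describes the letters and is not a bound site. The first pair shows the octamer, the next window NF-κB, and the last 3 PU.1/ETS, AP-1 and IRF matches.
Region near Enpp1, chr10:24763393-24763592: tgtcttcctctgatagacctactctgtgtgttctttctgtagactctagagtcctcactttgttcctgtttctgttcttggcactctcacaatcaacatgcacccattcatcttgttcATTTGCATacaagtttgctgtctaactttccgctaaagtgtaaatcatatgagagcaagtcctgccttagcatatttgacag
Ebf1 intron, chr11:44709947-44710146: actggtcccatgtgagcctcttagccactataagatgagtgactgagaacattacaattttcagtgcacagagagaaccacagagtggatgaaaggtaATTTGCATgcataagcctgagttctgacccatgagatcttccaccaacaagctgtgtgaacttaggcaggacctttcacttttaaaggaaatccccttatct
Tbx21 promoter, chr11:97115903-97116102: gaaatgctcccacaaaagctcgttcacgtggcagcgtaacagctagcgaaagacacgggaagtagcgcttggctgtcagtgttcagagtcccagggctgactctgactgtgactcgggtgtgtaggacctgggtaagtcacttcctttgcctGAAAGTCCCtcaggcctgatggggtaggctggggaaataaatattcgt
Anxa4 intron, chr6:86784815-86785014: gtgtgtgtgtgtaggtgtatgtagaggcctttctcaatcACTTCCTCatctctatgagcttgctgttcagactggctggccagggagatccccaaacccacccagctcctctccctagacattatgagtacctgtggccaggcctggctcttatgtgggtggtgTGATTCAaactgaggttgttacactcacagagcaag
Region near Ripk2, chr4:16112558-16112757: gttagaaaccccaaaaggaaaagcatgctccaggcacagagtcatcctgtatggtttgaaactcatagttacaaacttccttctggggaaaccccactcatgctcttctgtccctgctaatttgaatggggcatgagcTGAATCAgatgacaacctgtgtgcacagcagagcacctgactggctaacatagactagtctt
Region upstream of Ms4a1, chr19:11271717-11271916: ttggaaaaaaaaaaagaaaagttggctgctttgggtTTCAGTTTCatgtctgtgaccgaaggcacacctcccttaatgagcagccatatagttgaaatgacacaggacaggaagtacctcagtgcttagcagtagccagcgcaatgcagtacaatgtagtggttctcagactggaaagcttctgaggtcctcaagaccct
In the Ebf1 window the octamer starts at base 99 and thus covers the summit, and in the Tbx21 window the NF-κB match starts at base 153. The Anxa4 window holds a PU.1/ETS match at base 40 and an AP-1 match at base 165. Ripk2 encodes a kinase of the NOD receptor pathway, Tbx21 the transcription factor T-bet, and Ms4a1 the B-cell protein CD20.

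Promoters of defining genes were read as a check of the labels, by counting libraries with a peak within 1000 bases of a transcript start. All 8 B-lineage genes tested, Pax5, Ebf1 and Ms4a1 among them, had such a peak in all 6 spleen and all 6 BM libraries. Among 7 precursor genes, Rag1, Vpreb1 and Igll1, which serve receptor gene assembly and the pre-B-cell receptor, had a peak in the 6 BM libraries and none in spleen, and Dntt had none in any library. Vpreb3 and Il7r had one in all 12 libraries and Rag2 in 6 BM and 3 spleen libraries. Among 11 genes of monocytes, macrophages and neutrophils, 7 had no peak in any spleen library, among them Lyz2, Csf3r, S100a8 and Csf1r itself. The other 4 had one in spleen, Itgam in 6 libraries, Mertk in 5, Fcgr1 in 4 and Adgre1 in 1. The promoter of Csf1r had a peak in each of the 6 BM libraries, CSF1R+ and CSF1R- alike. In all, 7 of the 11 genes had one in all 6 BM libraries, Lyz2 and S100a8 among them. Among 7 T-cell genes, Cd3e, Cd3g, Cd4 and Cd8a had none in any library, whereas Cd3d and Lck had one in all 12. Of 4 genes each of NK, dendritic and erythroid cells, 3, 3 and 2 had no peak in spleen, while Klrd1, Zbtb46 and Klf1 had one in all 12. Hence the spleen libraries had peaks at all B-lineage promoters tested, at 3 of 7 precursor and at 4 of 11 myeloid promoters in at least 1 library. These promoters settle neither the label of macrophages nor the name of precursors. In spleen, peaks were absent at Csf1r and Lyz2 but present at Itgam and Mertk. They were likewise absent at Rag1, Vpreb1 and Igll1 but present at Vpreb3 and Il7r. The spleen lists are also shorter, as described below. Fewer open cells and weaker opening per cell cannot be told apart in bulk libraries.

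The spleen lists held 43407 to 50392 peaks and the BM lists 65832 to 76530, so a region had more chances of a peak in BM than in spleen. Depth per library is unknown, since the lists give no read counts. When every list was limited to its 43407 best peaks by q-value, 3986 regions met the same rule, and 1600 of the 1967 members (81.3%) were overlapped by one of them. The BM-only count fell from 11173 to 4543 in the same lists, so the gap between the 2 counts depends on list length. Of the 3986, 2386 overlapped a region in which the full lists do hold a BM peak. Thus absence in BM means that no peak was called there in the deposited lists and not that BM chromatin was closed.

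Strength is given as the authors' fold enrichment of a peak over its local background and as the −log10 of its q-value. The median fold enrichment of the members was 8.72, 8.55 and 7.55 in the 3 CSF1R+ spleen libraries and 6.93, 7.28 and 7.56 in the 3 CSF1R- libraries. The medians of −log10 q were 31.3, 29.7 and 24.2 in the CSF1R+ and 18.3, 18.7 and 24.5 in the CSF1R- libraries. The median member was stronger than 32.4% to 42.8% of the autosomal peaks of a library, and members made up 4.01% to 4.66% of those peaks. The mean over libraries, taken on the log scale, ran from 2 to 32.2 with a median of 7.66, against a median of 12.3 over all 34980 autosomal regions with a peak in 6 spleen libraries. Only 142 members (7.22%) reached 16, whereas 33.6% of those 34980 regions did. Most of the 34980 regions (29706) were shared. BM-only regions were of like strength in their own tissue, with a median of 7.8 over their BM peaks, against 7.74 over the spleen peaks of members. In 1863 members (94.7%) the peaks had a −log10 q of at least 5 in all 6 libraries.

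The peaks of a member lay on top of each other in most cases. The median width of the members' peaks was 269 to 328 bases in a spleen library, against 372 to 387 over all its autosomal peaks. As merged regions, the members had a median width of 437 bases, with quartiles at 310 and 584 and extremes at 171 and 1417. The median width was 387 bases over all autosomal regions, 481 for BM-only and 770 for shared regions, although width also grows with the number of peaks merged. At 1218 members (61.9%) the 6 summits fell within 50 bases of each other, and 1894 members (96.3%) held 1 peak in every spleen library. The log2 fold enrichment of the members correlated between any pair of spleen libraries with an r of 0.841 to 0.897 across regions, which are not independent replicates.

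The strongest member lay 51 kb downstream of the start of Ripk2, outside genes, at chr4:16112450-16112980. Its fold enrichment was 33.1, 32.4 and 31.7 in the CSF1R+ and 31.7, 32 and 32.1 in the CSF1R- libraries. The groups overlapped in these values, but after the centering described below the 3 CSF1R+ values were the lower ones (difference -0.14 on the log2 scale, standard error 0.05, adjusted p = 0.679 from limma). The next by mean rank lay in Apaf1, a core component of the apoptosome, with 34.9, 29.5 and 30.8 in the CSF1R+ and 30, 26.7 and 29.7 in the CSF1R- libraries. The third lay in an intron of Atf6, a sensor of unfolded protein in the endoplasmic reticulum, with 29, 28.9 and 26.3 against 23.9, 25.9 and 27.8. Others of the 10 highest lay in Fam168a, Med30 and Anxa4 or outside genes, with means of 24 to 27.3. Those outside genes had the closest start at Cog6 (185 kb away), Emc7 (17.2 kb), Gm5148 (257 kb) and Enpp1 (51.3 kb). Of these 10 members none was at a promoter. When members were ranked by q-value in place of fold enrichment, 2 of the 10 stayed among the first 10.

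**Figure D1:**
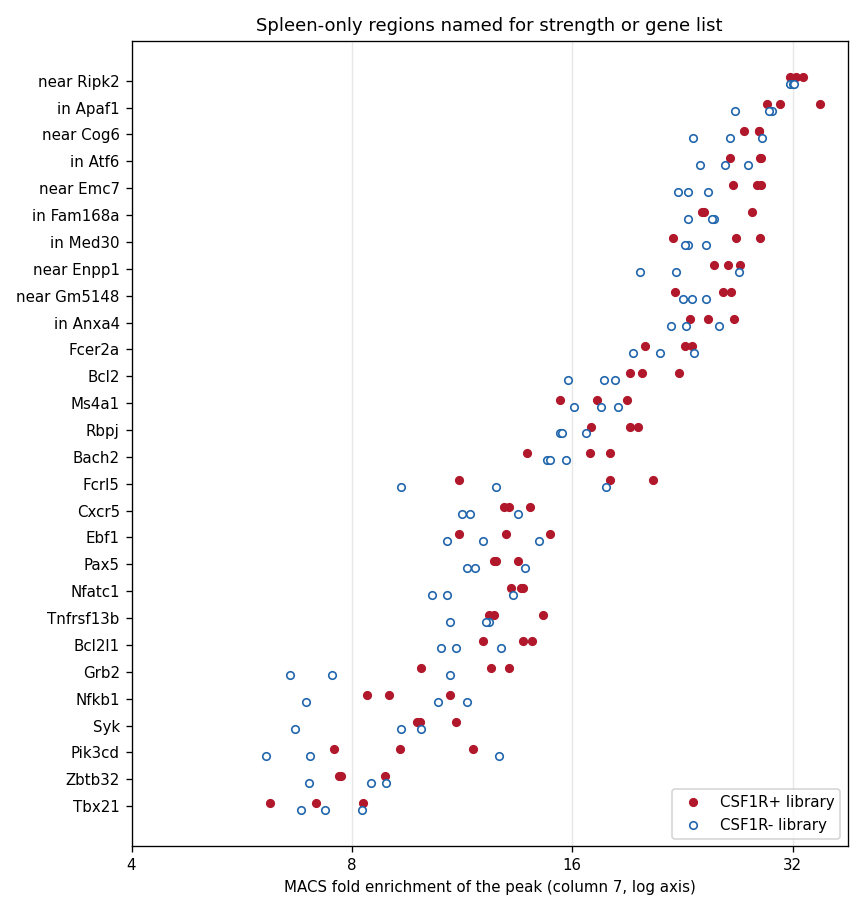
Fold enrichment (column 7, log axis) of spleen-only regions named for strength or gene list in each spleen library, 3 CSF1R+ (filled) and 3 CSF1R- (open). Labels give the gene of the list, or the gene a strong region lies in, or else the gene with the closest start at any distance. The region near Ripk2 sits at 31.7 to 33.1 in all 6 libraries, while the points of Fcrl5 spread from 9.35 to 20.6 with both groups overlapping.

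The octamer, NF-κB and PU.1/ETS motifs were more frequent at the summits of members than over all regions and than in the flanks of the same members. The octamer was present in 164 of 1967 windows (8.34%), against 2.62% of all 98807 autosomal windows of the same length and 1.45% of the flanking 200-base windows. The NF-κB motif was present in 65 windows (3.3%), against 0.846% of all windows and 0.89% of the flanks. The PU.1/ETS motif was present in 236 windows (12%), against 7.99% of all windows and 1.12% of the flanks. Among BM-only regions these shares were 2.56%, 0.474% and 7.48%, and among shared regions 2.68%, 0.845% and 8.07%. The flanks of all autosomal regions held the octamer, NF-κB and PU.1/ETS in 1.02%, 0.738% and 1.36%. The octamer and PU.1/ETS were thus more frequent at summits than in flanks over all regions too. The AP-1 motif was present in 10.7% of members, 6.89% of all windows and 6.86% of flanks. The IRF motif was present in 10.1% of members and 7.49% of all windows, and at a similar share in the flanks of members (8.85%). The shares are descriptions, since the regions were chosen with the libraries in view and neighboring regions are not independent.

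Matches of the octamer, NF-κB and PU.1/ETS lay mostly close to the summit. The median distance of a match from the summit was 26 bases for the octamer, 24 for NF-κB and 24 for PU.1/ETS, and between 74.2% and 82.3% of these matches were within 50 bases. For AP-1 and IRF the medians were 41.5 and 34.5 bases, with 60.9% and 65% of matches within 50 bases. The octamer and NF-κB were found in the same window in 1 member. A single motif of the 5 was present in 667 members (33.9%) and more than 1 in 100 (5.08%), while 1200 members (61%) held none of them. Over all autosomal regions these shares were 21.2%, 2.27% and 76.5%.

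The E-box CAGCTG and the EBF1 motif were less frequent in members than over all regions. CAGCTG, which E2A binds, was found in 157 members (7.98%), in 18.8% of all windows and in 36.1% of BM-only windows. In members its share at the summit was that of their own flanks (8.01%), whereas in BM-only regions it was 11.8% in the flanks. The EBF1 palindrome TCCCNNGGG was found in 2.64% of members, 6.35% of all windows and 11.8% of BM-only windows, and in 1.63% of the flanks of members. The GC box GGGCGGG was found in 2.59% of members and in 20.1% of shared windows. The pattern CANNAGNGG, a part of the CTCF motif, was present in 14.9% of members against 23.4% of all windows. The remaining motifs searched were the ETS-IRF composite GGAANTGAA, RUNX TGTGGTT, ZEB/E2A CAGGTG, MYC CACGTG, MEF2 CTANNNNTA, FOXO TGTTTAC, KLF CCACACCC, STAT TTCNNNGAA, TCF/LEF CTTTGAA, EGR GCGTGGGCG and T-box TCACACC. Of these MEF2 had the highest share, with 21.7% of members and 15.9% of all windows, but it was more frequent still in the members' flanks (23.9%). STAT was present in 7.63% of members against 5.53% of all windows and TCF/LEF in 6.35% against 4.22%. The flanks of members held these in 7.24% and 5.16%, so STAT was about as frequent there as at the summits. For RUNX (8.54% and 8.56%) and CAGGTG (19.5% and 19.1%) both shares were similar, and the flanks of members held these in 4.47% and 14.4%. PU.1/ETS and the ETS-IRF composite share the letters GGAA, and GAAANNGAA can overlap both, so the shares do not add up.

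Base composition moved with these shares. The windows of members had a mean of 46.1% G and C (SD 6.19, n = 1967 windows), against 51.6% over all autosomal windows, 52.3% for BM-only and 55.5% for shared regions. Members held 2.27 CpG pairs per window, all windows 4.96 and shared windows 8.53, and 17.8% of members held none. Among the 1132 members over 1 kb from a start and with 40% to 50% G and C, the octamer was present in 9.28%, against 3.85% of the 37618 regions of that kind. In the same band NF-κB was present in 3.45% against 0.954%, PU.1/ETS in 13% against 9.54%, and CAGCTG in 7.24% against 15.1%. The MEF2 pattern was present in 21.9% of members and 22% of all regions in the band, and the IRF motif in 10.6% and 9.84%. Shared regions in the band held the octamer in 5.01%, NF-κB in 0.922%, PU.1/ETS in 12.1% and IRF in 12.3%, so PU.1/ETS differed little between members and shared regions there. The ratio of members to all regions was 3.18 for the octamer and 3.91 for NF-κB without the band, and 2.41 and 3.61 within it. The part of base composition in these shares was not tested further.

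**Figure D2:**
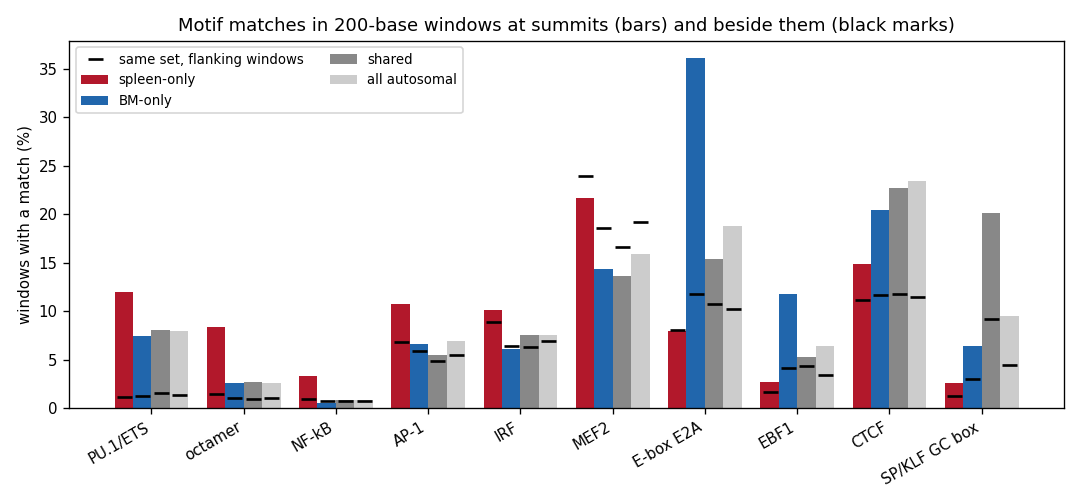
Share (%) of 200-base windows at summits with a match to each of 10 motifs on either strand, for spleen-only (red), BM-only (blue), shared (dark gray) and all autosomal regions (light gray); black marks give the share in the flanking windows of the same set. The octamer stands at 8.34% of spleen-only and 2.56% of BM-only windows, and the E-box of E2A at 7.98% and 36.1%.

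Median strength differed by motif, and among the motifs searched it was highest with NF-κB. The 65 members with an NF-κB match had a median fold enrichment of 9.02, and those without of 7.63. Members with an octamer had a median of 8.17, against 7.62 without. The medians with and without a match were 8.48 and 7.65 for the GC box, 8.4 and 7.61 for STAT, 8.28 and 7.48 for MEF2, and 7.65 and 7.68 for CAGCTG. Members were weaker with a match to EGR (6.48 and 7.68, 5 members with it), MYC (6.64 and 7.7) and T-box (6.82 and 7.72). Medians were also lower with KLF (7.34 and 7.69), RUNX (7.37 and 7.69) and the ETS-IRF composite (7.53 and 7.69). These differences were not tested. In the strongest of 3 equal classes of members (9.34 to 32.2) 31 members (4.73%) held an NF-κB match, against 17 (2.59%) in the weakest class (2 to 6.47). The octamer was held by 9.3% and 7.47% of these classes, and AP-1 by 10.7% and 11.4%.

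Members were rarely at promoters. The summit lay within 1000 bases of the start of a protein-coding transcript in 80 members (4.07%), against 15.9% of all autosomal regions, 8.73% of BM-only and 35.3% of shared regions. A further 79 members (4.02%) lay in exons, 1031 (52.4%) in introns and 777 (39.5%) outside protein-coding genes. Over all autosomal regions the share in introns was 39.9% and the share outside genes 39.6%, so the members exceeded the average mainly in introns. The median distance to a start was 20.9 kb, and 265 members (13.5%) were over 100 kb from any, against 12.7% of all regions. Members at promoters had a median fold enrichment of 6.6 and members outside genes of 8.16.

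By chromosome, the members made up between 1.36% of the regions on chromosome 8 (65 of 4769) and 2.51% on chromosome 13 (122 of 4857). The highest count was 159, on chromosome 1. On the X chromosome, which the rule leaves out, 68 of 2504 regions (2.72%) had the same pattern of peaks.

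Gene lists were read by counting the members inside a gene or within 10 kb of it. Of 20780 autosomal protein-coding genes 1313 (6.32%) had a member this near, and 5334 (25.7%) had a BM-only region. Both kinds were found at 506 genes, which is 38.5% of the former and 9.49% of the latter. Long genes with many regions have more chances, so the share of members among the regions near a list's genes is given beside the count. Over the 72219 regions near any protein-coding gene that share was 1.95% for members and 10.5% for BM-only regions. A region near 2 genes of a list was counted for each.

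Genes of mature and follicular B cells had a member at 19 of 45, and 27 of their 499 regions (5.41%) were spleen-only, while 17 (3.41%) were BM-only. Genes of B-cell precursors had a member at 1 of 18, with 1 of 171 regions (0.585%) spleen-only and 43 (25.1%) BM-only. The 1 gene was Cd93, a surface protein of early B cells, where the member lay 11.6 kb from the start. The NF-κB and survival list had a member at 7 of 23 genes and 18 of 240 regions (7.5%). Of these 18 members 9 lay at a single gene, Bcl2, among its 36 regions, so the list's share rests largely on it. The list of B-lineage genes had a member at 3 of 8 (9 of 133 regions, 6.77%), that of B-cell receptor signaling at 8 of 19 (14 of 307, 4.56%) and that of lymphocyte transcription factors at 9 of 35 (16 of 509, 3.14%). The list of marginal zone, B1 and age-associated B cells had a member at 5 of 16 genes (6 of 145 regions, 4.14%). BM-only regions numbered 9 (3.75%) in the NF-κB and survival list and 3 (2.26%) in the B-lineage list. They numbered 14 (4.56%) in receptor signaling, 30 (5.89%) in transcription factors and 14 (9.66%) in the marginal zone list.

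Lists of other cells had 0 to 3 members each. T-cell genes had a member at 2 of 16, Cd28 and Lck, with 2 of 92 regions (2.17%). Genes of monocytes, macrophages and neutrophils had a member at 3 of 17, Itgam, Elane and Adgre1, with 3 of 130 regions (2.31%). Erythroid genes had 1 member in 29 regions (3.45%), at Hbb-bt. Plasma cell, NK cell and dendritic cell genes had 0 members in 62, 31 and 44 regions. With so few regions, a difference of 1 member moves these shares widely.

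**Figure D3:**
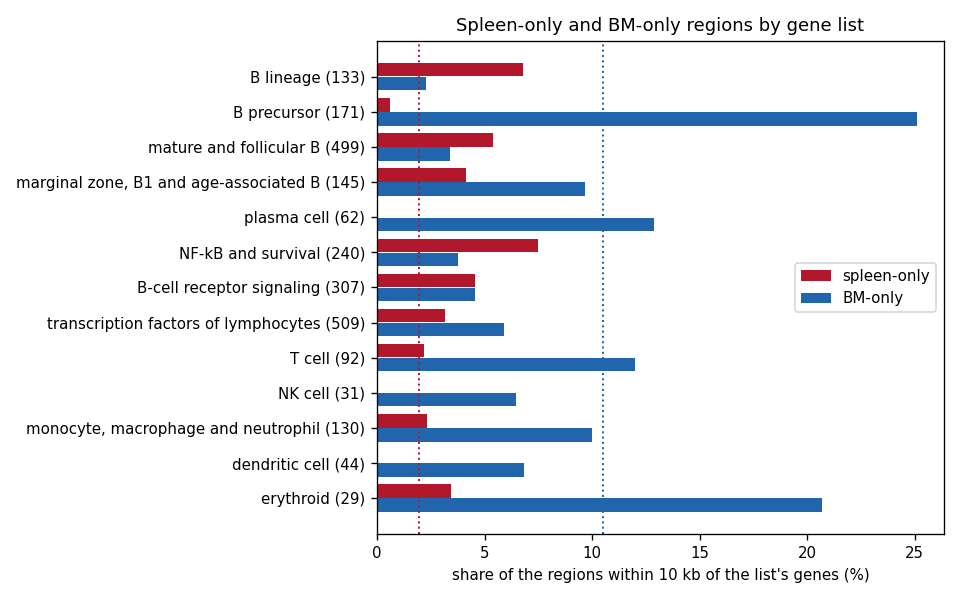
Share (%) of the regions within 10 kb of the genes of each list that were spleen-only (red) or BM-only (blue), with the number of regions in brackets; dotted lines give the same shares over all regions near protein-coding genes. Spleen-only regions reach 7.5% at genes of NF-κB and survival and 0.585% at genes of B-cell precursors, where BM-only regions reach 25.1%. At genes of NF-κB and survival, 9 of the 18 spleen-only regions lay at Bcl2.

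Among receptors of mature B cells, Fcer2a, which encodes CD23, had the strongest member, 108 bases upstream of its start at chr8:3693718-3694685. Its fold enrichment was 22.8, 23.3 and 20.1 in the CSF1R+ and 21.1, 23.5 and 19.4 in the CSF1R- libraries, with a −log10 q of at least 241. All 6 values were above the median member's, and the groups overlapped. Tnfrsf13b, which encodes the BAFF and APRIL receptor TACI, had a member 46 bases upstream of its start (chr11:61126542-61127178), with 12.3, 12.5 and 14.6 against 10.9, 12.3 and 12.2. Cxcr5, the receptor that guides B cells to follicles, had an intronic member with 12.9, 14 and 13.1 against 11.6, 11.3 and 13.5. Tnfrsf13c, which encodes the BAFF receptor, had a member with a mean of 8.54. The inhibitory receptor gene Btla had 3 members among its 9 regions, with means of 4.6 to 7.58.

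Other genes of the mature B-cell list serve antigen presentation. H2-Aa and H2-Eb1, which encode chains of MHC class II, had members with means of 4.51 and 2.56, and Ciita, the master regulator of class II genes, had 1 with a mean of 6.26. Cd74, the class II invariant chain, had the weakest member of all, with a mean of 2. Icosl, a ligand for T-cell costimulation, had 1 with a mean of 4.4. The other genes of the mature B-cell list with a member were Traf3 (9.13), Ms4a4c (7.18), Foxo1 (6.82), Cd38 (4.55), Spib (3.4), Ltb (3.39), Gpr183 (2.74), Bach2 and Cd83, where the brackets give the mean fold enrichment. Bach2 is described with the transcription factors and Cd83 with its group below.

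Among genes of survival, Bcl2, which blocks the mitochondrial path to apoptosis, had 9 members among its 36 regions (25%), and no BM-only region. Their means ran from 4.31 to 18.8, and the strongest, 119 kb inside the gene, had 22.4, 19.9 and 19.2 in the CSF1R+ and 17.7, 15.8 and 18.3 in the CSF1R- libraries. The values of the CSF1R+ libraries were all higher, but the difference after centering was 0.09 on the log2 scale (standard error 0.09), and the centered values overlapped. Bcl2l1, which encodes BCL-XL, had 1 member with a mean of 12.3 beside 3 BM-only regions. Of the NF-κB subunits, Nfkb1 had 3 members with means of 3.54 to 9.4 and Nfkb2 had 1 within 10 kb, which lay in the neighboring gene Psd, with a mean of 5.38. Nfkbiz and Tnfaip3, an atypical inhibitor and a feedback brake of the pathway, had 2 members and 1 member.

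Among transcription factors, Bach2, a repressor that keeps B cells from becoming plasma cells, had 5 members among 61 regions, the strongest with 18, 16.9 and 13.9 against 15.7, 14.8 and 14.9. Ets1 had 6 members among 33 regions (18.2%) with means of 4.87 to 10.4. Runx1 had 2 members beside 5 BM-only regions, and Ikzf1 had 2 beside 0. Tcf4, Irf8 and Runx3 had 1 member each beside 2 BM-only regions, Klf6 had 1 beside 1, and Mef2c and Rara had 1 beside 0. Rbpj, the DNA-binding partner of Notch and thus of marginal zone fate, had an intronic member with 19.7, 19.2 and 17 against 16.7, 15.4 and 15.5. Its CSF1R+ values were all higher, but the centered values overlapped, with a difference of 0.07 on the log2 scale (standard error 0.09). Tbx21 had 2 members among 4 regions, both at promoters, with means of 7.3 and 5.56. Zbtb32, a repressor found in age-associated and memory B cells, and Dtx1, a Notch regulator, had members with means of 8.09 and 5.23. Fcrl5, an Fc receptor-like gene of marginal zone and B1 cells, had a promoter member whose values spread more widely, with 20.6, 18 and 11.2 against 12.6, 17.8 and 9.35.

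Among genes of receptor signaling, Nfatc1, a calcium-dependent transcription factor, had 4 members among 25 regions, with means of 3.57 to 12.4. The kinases and adaptors Syk, Pik3cd, Grb2, Prkcb and Pik3ap1, the RAS exchange factor Rasgrp3 and the coreceptor gene Cd81 had 1 or 2 members each, the strongest at Grb2 (9.78) and Syk (9.36). Of these, Syk and Pik3cd also had 2 BM-only regions each, Prkcb, Rasgrp3 and Cd81 had 1 each, and Grb2 and Pik3ap1 had 0.

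Pax5 and Ebf1, which set and hold B-lineage identity, had peaks at their promoters in all 12 libraries and spleen-only regions in their introns. Within 100 kb of Pax5 there were 4 members and 1 BM-only region among 41 regions, with 3 of the members in its introns. The strongest, 43 kb from the start at chr4:44667384-44667950, had 13.5, 12.5 and 12.6 in the CSF1R+ and 11.8, 13.8 and 11.5 in the CSF1R- libraries, and its window holds an octamer. Its difference after centering was -0.10 on the log2 scale, whereas those of the other 3 were toward CSF1R+. They were 0.42 (standard error 0.24) at 145 kb, 0.65 (standard error 0.25) at 76.2 kb and 0.39 (standard error 0.16) in Zcchc7. The last had 14.9, 15.4 and 14.8 against 9.94, 8.36 and 13.1, without overlap, and none of the 4 passed limma's adjusted threshold (adjusted p of 0.679 to 0.849). Within 100 kb of Ebf1 there were 8 members and 4 BM-only regions among 71 regions, with 5 of the members in its introns. The strongest, at chr11:44709744-44710452, had 13, 14.9 and 11.2 against 10.8, 14.4 and 12.1. Ms4a1 had a member 5.58 kb upstream of its start with 17.3, 19 and 15.4 against 18.5, 17.5 and 16.1. Within 100 kb of Csf1r there was no member among 23 regions, of which 4 were BM-only and 3 shared.

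The immunoglobulin loci were read with 100 kb on either side, against 1.99% members and 11.3% BM-only regions over the autosomes. The heavy-chain locus had 2 members (0.714%) and 57 BM-only regions (20.4%) among 280, both members 1.33 and 5.33 kb from Ighg3, with means of 10.7 and 14. The κ locus had 9 members (2.89%) and 62 BM-only regions (19.9%) among 311, so both kinds exceeded their share over the autosomes. One of the 9 lay 1.39 kb from the constant gene Igkc (mean 3.8), and the strongest lay 8.17 kb from the variable segment Igkv4-50 (mean 14.3). The λ locus had 4 members (10.3%) and 1 BM-only region (2.56%) among 39, the strongest 9.12 kb from Iglc4 with a mean of 13.9. Short reads at near-identical variable segments may have been dropped by the authors' filter for unique alignments, so counts in these loci are uncertain.

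Members stood together along the genome more often than their share of all regions. Among the 10 nearest regions of a member, 6.11% were members too, which is 3.07 times the 1.99% over all autosomal regions. The same measure was 17% for BM-only regions, 1.51 times their 11.3%, and 35.8% for shared regions, 1.19 times their share of 30.1%. With lists of equal length the ratio was 1.96 for spleen-only regions (11.8% against 6.01%) and 1.84 for BM-only regions (12.6% against 6.85%), so the gap between these sets depends on list length too. In all, 838 members (42.6%) had another member within 50 kb, and 37 groups held 4 or more. The same share was 67.8% for BM-only and 92% for shared regions, which are more numerous, and is no sign of clustering by itself. The median distance between neighboring members was 307 kb, and 917 of 2331 windows of 1 Mb held at least 1.

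The group with most members lay over Rasgef1b, which encodes an activator of RAP GTPases, on chromosome 5 from 99216644 to 99489086. It held 14 members in 272 kb, among 36 regions of which 6 were shared and none BM-only, with means of 4.28 to 17.7. The strongest had 22.2, 18.2 and 20.1 in the CSF1R+ and 10.8, 16.8 and 20.5 in the CSF1R- libraries. The group at Ripk2 held 8 members in 161 kb, including the strongest of all. A group at Serpinb11 and Serpinb7, of the serine protease inhibitor family, held 7 members in 104 kb and no region shared by all 12 libraries. Its regions 34.1 and 70.8 kb from the first member nevertheless had a peak in 6 spleen and 5 BM libraries. At Cd83, a marker of activated B and dendritic cells, 7 members lay within 40.1 kb, of which 6 were upstream of the start, with means of 4.01 to 7.04. A group of 6 at Bmt2 held 2 members with means of 21.9 and 23.5. None of the 5 groups contained a BM-only region.

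**Figure D4:**
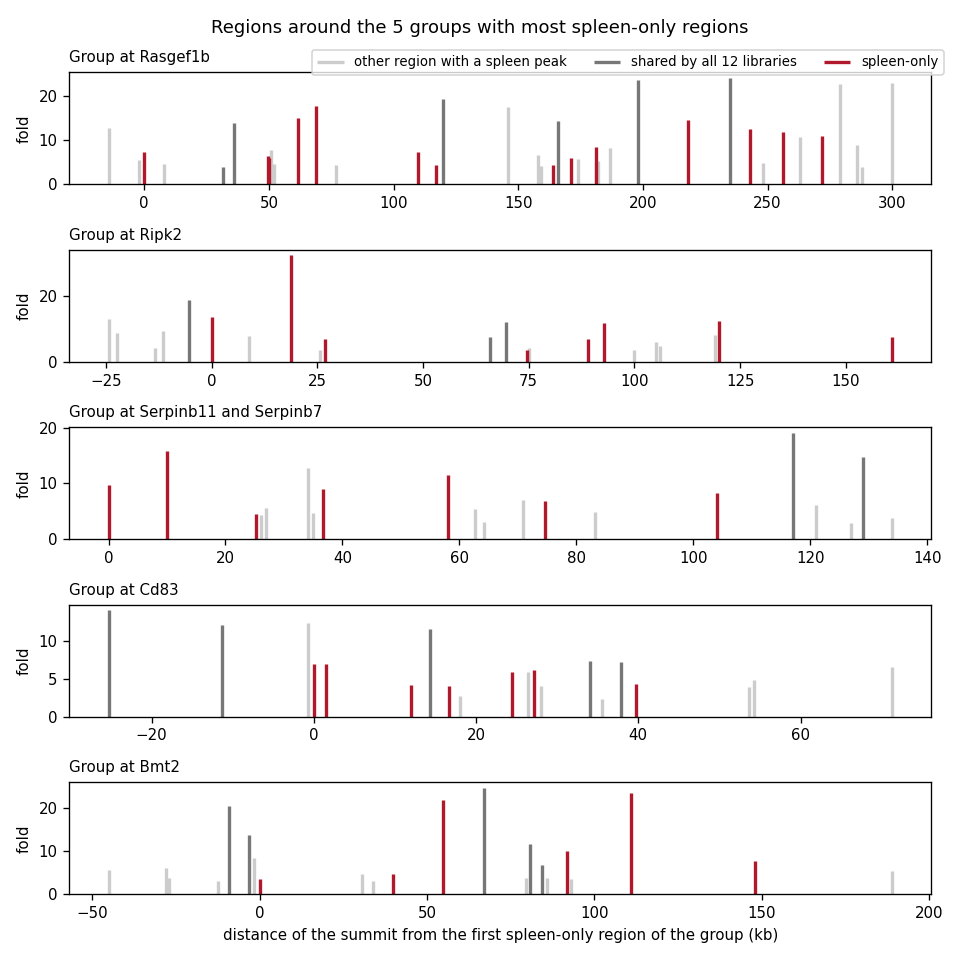
Mean fold enrichment in spleen of the regions in and around the 5 groups with most spleen-only regions, plotted against the distance (kb) of the summit from the first spleen-only region of each group; red lines are spleen-only, dark gray shared and light gray other regions with a spleen peak. The 14 red lines of the Rasgef1b group run over 272 kb.

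To see whether members differ between CSF1R+ and CSF1R- spleen cells, the log2 fold enrichment was centered on each library's median over all 34980 autosomal regions with a peak in 6 spleen libraries and fitted with limma. With Benjamini-Hochberg adjustment over all of them, 0 members and 0 of 34980 regions (0%) passed an adjusted p of 0.05, and the smallest adjusted p of a member was 0.679. Regions that lack a peak in any of the 6 spleen libraries were not fitted. A region with peaks in CSF1R+ or CSF1R- cells alone was thus not compared. At an unadjusted p under 0.05, limma gave 57 members higher in CSF1R+ (2.9%, against 2.72% of all regions) and 51 lower (2.59%, against 4.55%). The 95% interval of a member's difference reached a median of 0.383 to either side on the log2 scale, or 1.3-fold, so smaller differences lay within the error of a typical member.

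The fitted differences of the members were centered close to 0. Their median was -0.0075, with quartiles at -0.129 and 0.129, against a median of -0.0474 over all regions. In 75 members (3.81%) the 3 centered CSF1R+ values all exceeded the 3 CSF1R- values, against 3.69% of all regions. The reverse held in 109 members (5.54%), against 10.4% of all regions. Before centering, the libraries themselves differed, with a median over all regions of 13.9, 13.6 and 12.2 in CSF1R+ and of 11.4, 11.9 and 12.3 in CSF1R-. Without centering, the median difference was 0.15 for members and 0.11 over all regions, so the direction of this small value depends on the scaling.

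**Figure D5:**
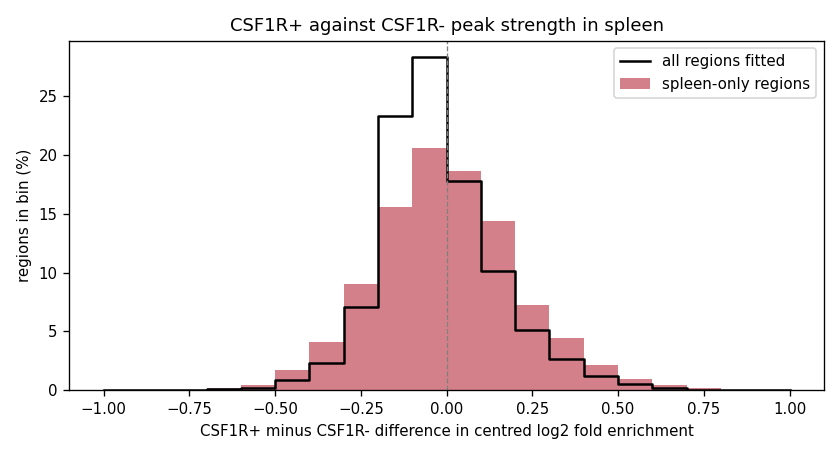
Share (%) of regions by CSF1R+ minus CSF1R- difference in centered log2 fold enrichment, in bins of 0.1, for the 1967 spleen-only regions (red bars) and all 34980 regions fitted (black line). Both are centered near 0, and the spleen-only regions spread more widely.

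Among members whose groups did not overlap, the 5 largest differences toward CSF1R+ were 0.69 to 0.80 on the log2 scale. The largest was in an intron of Lin54, a DNA-binding subunit of the DREAM complex, with 12.6, 9.98 and 10.3 in the CSF1R+ and 5.55, 7.4 and 4.27 in the CSF1R- libraries (difference 0.80, standard error 0.22, adjusted p = 0.679 from limma). The next lay in Ncoa1, a nuclear receptor coactivator, with 12.9, 18.2 and 15.7 against 6.43, 7.4 and 11.2 (difference 0.77, standard error 0.20). The others lay in Rnf145 and near Pla2g10 and Rasa1. The 5 largest in the other direction were -0.68 to -0.58, led by an intron of Map3k5, a stress-activated kinase, with 7.91, 7.06 and 4.12 against 8.22, 9.67 and 8.66 (difference -0.68, standard error 0.21, adjusted p = 0.679 from limma). The others lay in Adap2, Atl1 and Zbtb20 and outside genes, 171 kb from the closest start, that of Tbl1xr1. None of these passed the adjusted threshold, and they were picked as the extremes.

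Regions that missed the rule by 1 spleen library were weaker than members, and those that missed it by 1 BM library had spleen peaks of like strength. In 737 autosomal regions a peak was found in 5 spleen libraries and no BM library, with a median fold enrichment of 5.62 against 7.74 over the peaks of members. The missing library was CSF1R- replicate 1, which has the shortest list, in 320 of the 737. It was CSF1R- replicate 2 or 3 in 184 and 94, and CSF1R+ replicate 1, 2 or 3 in 26, 31 and 82. In 550 regions a peak was found in 6 spleen libraries and 1 BM library. Their spleen peaks had a median of 7.72 and their BM peaks of 4.36, with a −log10 q of 8.15.

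Repeats were more frequent among members than among other regions. Soft masking, which marks repeats in the genome sequence, covered 18.3% of the bases of members' windows, against 14.6% over all autosomal and 12.3% over BM-only windows. It covered most of the window in 198 members (10.1%), against 7.71% of all autosomal windows. Over 1 kb from a start the gap was smaller, with 18.6% of bases in members against 16.1% in all, and 10.3% against 8.96% mostly masked. A run of 20 bases, found by counting runs and thus chosen after its values were seen, occurred within 100 bases of the summit in 28 members on 13 chromosomes. The strongest of these lay in the group at Serpinb11, with the run in capitals:
Region near Serpinb11, chr1:107329033-107329232: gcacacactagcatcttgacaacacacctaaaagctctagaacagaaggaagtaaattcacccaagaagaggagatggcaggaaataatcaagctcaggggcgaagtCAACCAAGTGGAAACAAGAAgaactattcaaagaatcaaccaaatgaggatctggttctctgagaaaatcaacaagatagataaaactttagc
Its fold enrichment was 15.4, 17.2 and 16.6 in the CSF1R+ and 15.4, 16.1 and 14.7 in the CSF1R- libraries. The run is present 12809 times on the autosomes, and 274 regions of the 12 libraries hold it. Of these 28 (10.2%) were spleen-only, 7 BM-only and 29 shared, and a further 95 had a peak in 1 to 5 spleen libraries and in no BM library. All 28 members were mostly soft-masked, and their means ran from 5.58 to 15.9. A second run, the most frequent among BM-only regions, was held by 183 regions, of which 30 were BM-only and 2 spleen-only. The authors kept uniquely aligned reads only, so copies without distinct bases nearby cannot show a peak, and the part of alignment in these counts was not tested.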

How the data were processed

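ATAC-seq was performed in the study on 12 paired-end libraries. Per the study's methods and the labels, the authors trimmed reads with cutadapt, aligned them to mm10 (GRCm38) with BWA, kept unique reads, removed duplicates and the ENCODE blacklist, and ran MACS2 on each library (versions are not given in the sources used here). The deposited lists give fold enrichment, which is a ratio over local background, and the −log10 of the p-value and q-value of each peak. The lists hold no read counts, so depth per library is unknown, and replicate agreement is the only measure of precision.

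Peaks sharing 1 base were merged across libraries, and the strongest peak of a library gave its value in a region. Genes are from GENCODE M21, sequences from RefSeq GRCm38.p6. Spleen CSF1R+ and CSF1R- cells were compared by limma (lmFit and eBayes with a trend) on median-centered log2 fold enrichment, with Benjamini-Hochberg adjustment. Other results are counts and shares with no test.

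The members and gene lists were chosen with earlier results of these data known. Named members were the 10 with the highest mean rank of fold enrichment, up to 4 genes per list with the strongest member within 10 kb, the 5 largest differences in each direction among members whose groups did not overlap, the 5 groups with most members (gaps up to 50 kb), members within 100 kb of Csf1r, Pax5, Ebf1 and the immunoglobulin loci, and regions at the edge of the rule. Other list genes with a member, and the repeat run, were named after their values were seen. Some list genes and a sequence are not reported here. Alternatives were a q-value limit, equal list lengths, other overlaps and windows, other scaling, a block for replicate number, and leaving out each library. The table of the union of peaks and the scRNA-seq tables were not used here. Computations used Python 3.11.15, numpy 2.4.6, pandas 2.3.3, scipy 1.17.1, matplotlib 3.10.9, R 4.3.3 and limma 3.58.1.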

Additional observations from a re-analysis of the deposited data

How the results depend on the processing

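The count of 1967 spleen-only regions was 2173 when a peak had to cover 50% of a region, 1939 with a −log10 q of at least 5, 2243 with regions of 100 bases either side of summits, and 1993 to 2287 with 1 library left out. With lists of equal length it was 3986. The share at promoters went from 4.07% to 5.72% with equal lists (20.1% of all regions) and to 1.73% for 500 bases before to 100 after a start (11.8% of all regions). The share of members among the nearest regions was 6.8% for 5 and 5.18% for 20 neighbors, and 11.8% with equal lists, where 6.01% of all regions were spleen-only. The count of members that passed limma's adjusted p of 0.05 was 0 under all 12 alternatives. Limma's smallest adjusted p of a member lay between 0.324 (no centering) and 0.998 (q-values in place of fold enrichment). The replicate block gave 0 members and a median difference of -0.0075. The correlations of same-numbered samples were 0.0679, 0.0319 and 0.122, and those of differently numbered samples ran from -0.0908 to 0.0272. Same-numbered pairs were thus the higher ones, but all values were low and the labels state no pairing. The number was therefore not taken as a pairing in the main fit. The median difference of members was 0.15 without centering, 0.0219 with quantile normalization and 0.0418 with q-values in place of fold enrichment, and -0.0138 to -0.0026 with 1 library left out. Its sign thus depends on the scaling, and the cause was not tested. The shares of the octamer, NF-κB, PU.1/ETS, AP-1 and CAGCTG, the motifs tried, were recomputed after the data were seen. Over 1 kb from starts, with a −log10 q of at least 5 and without mostly soft-masked members, the octamer was present in 8.32%, 8.32% and 8.54% of members. NF-κB was present in 3.23%, 3.38% and 3.17%. These settings keep most of the same members, so the shares could move little. In windows of 100 bases the share of members was lower for each of these motifs. The octamer was then present in 6.41% of members and 1.87% of all regions, and NF-κB in 2.44% and 0.455%. Read depth, which the lists do not give, limits what absence of a peak can show.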
